A study of Mus musculus with 6 samples.

Results

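Genes at the core of canonical Wnt signalling were read from a microarray experiment on embryonic mammary buds. They were chosen by name and all were measured, 7 of the 25949 probe sets in the table: beta-catenin (Ctnnb1, ENSMUSG00000006932_at), the 4 Tcf/Lef transcription factors (Lef1, ENSMUSG00000027985_at; Tcf7, ENSMUSG00000000782_at; Tcf7l1, ENSMUSG00000055799_at; Tcf7l2, ENSMUSG00000024985_at) and the Axin scaffolds (Axin1, ENSMUSG00000024182_at; Axin2, ENSMUSG00000000142_at). Each probe set is listed by the authors under an Ensembl gene identifier. The arrays were Affymetrix Mouse Exon 1.0 ST, whose probes lie along the exons of mouse genes. All buds came from E13.5 Eda-/- embryos, which lack the TNF family ligand ectodysplasin, on a B6CBA background. On 3 arrays the RNA came from control buds kept for 4 h without added ligand, and on the other 3 from buds kept for 4 h with Fc-Eda-A1, a recombinant form of the missing ligand (Fc-Eda below). By the sample descriptions each array held RNA from a pool of about 20 buds of 5 to 6 embryos, where the study's methods give somewhat smaller pools. Littermates from 3 litters were used, and each embryo gave buds to both conditions, so that the arrays form 3 pairs. The buds were dissected by hand with most but not all of the mesenchyme taken off.

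In canonical Wnt signalling, beta-catenin is held low by a destruction complex built on Axin. When a Wnt ligand binds its receptors this complex is inhibited, beta-catenin accumulates and enters the nucleus, and there it acts as a coactivator for Tcf/Lef proteins bound to DNA. Axin2 is a widely used readout because it is transcribed in response to the pathway and feeds back on it, and Lef1 is both a mediator and a target. Mammary placodes need this pathway to form. Lef1 is expressed in the bud epithelium and in the mesenchyme around it. The question addressed here is whether 4 h of Eda changed the transcript levels of these shared components and readouts of the pathway.

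The DNA just before the transcription starts is shown for the genes the results turn on, the readouts Lef1 and Axin2 and the pathway's effector Ctnnb1. The sequences are RefSeq's for GRCm38.p6, 250 bases before a start, 5′ to 3′ on the gene's strand. Lef1 has 4 starts in that table, and the windows of its first start (chr3:131110047-131110296, + strand) and last start (chr3:131156044-131156293, + strand) are given. For Ctnnb1 the first of 2 starts is given (chr9:120933150-120933399, + strand) and for Axin2 the only one (chr11:108920099-108920348, + strand). Capitals mark the letters CTTTGA or CTTTGT, the core bound by Tcf/Lef proteins, on either strand, so that TCAAAG and ACAAAG are the same letters read on the other strand.
Lef1, first start: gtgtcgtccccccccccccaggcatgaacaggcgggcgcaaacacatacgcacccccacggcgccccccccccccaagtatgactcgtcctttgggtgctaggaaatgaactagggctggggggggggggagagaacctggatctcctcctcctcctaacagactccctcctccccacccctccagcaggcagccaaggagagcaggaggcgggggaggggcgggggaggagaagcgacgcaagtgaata
Lef1, last start: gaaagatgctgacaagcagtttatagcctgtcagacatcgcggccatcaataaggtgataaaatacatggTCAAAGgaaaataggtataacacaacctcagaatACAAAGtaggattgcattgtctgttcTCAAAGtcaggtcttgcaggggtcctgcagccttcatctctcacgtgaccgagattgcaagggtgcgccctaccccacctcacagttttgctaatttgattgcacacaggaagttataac
Ctnnb1, first start: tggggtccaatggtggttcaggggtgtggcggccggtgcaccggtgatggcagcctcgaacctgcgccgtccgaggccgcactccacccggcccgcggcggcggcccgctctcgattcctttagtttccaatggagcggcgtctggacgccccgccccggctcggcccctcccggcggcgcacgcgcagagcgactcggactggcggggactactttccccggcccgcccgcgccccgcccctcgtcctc
Axin2: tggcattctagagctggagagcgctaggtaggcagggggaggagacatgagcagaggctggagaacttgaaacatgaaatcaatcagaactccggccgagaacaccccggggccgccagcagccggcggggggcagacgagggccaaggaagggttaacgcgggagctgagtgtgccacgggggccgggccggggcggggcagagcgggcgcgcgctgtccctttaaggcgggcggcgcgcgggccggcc

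The last Lef1 window holds these letters 3 times, beginning 180, 146 and 120 bases before the start. The first Lef1 window, the Ctnnb1 window and the Axin2 window hold none. Over the 12 windows of the 6 genes found in the table, 3 hold them, 1 each of Lef1, Tcf7l1 and Tcf7l2, where 27.6% of all 32851 windows do. The kappaB consensus, the letters bound by NF-kB, the factor that Eda activates, was searched in the same windows on both strands. It was present in 1 of the 12, the first window of Tcf7l2, and in 7.25% of all windows, and the 2 motifs did not overlap in any of the 12. These letters are a description of the windows and not of binding. Axin1 had no window in the table.

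The table as a whole sets the scale for the differences. The median log2 level was 4.99 on the array of control 1 and 4.80 to 4.83 on the other 5 arrays, and the median difference between Fc-Eda and control over all probe sets was -0.074 in pair 1, 0.00048 in pair 2 and 0.0085 in pair 3. The control 1 array thus stood apart, also in its interquartile range, 2.59 against 2.81 to 2.96 on the other 5. Means are also given after rescaling, or without a pair, where these move them by over 1.5 times. Median centring left a median difference over all probe sets of 0.11 in pair 1, away from 0. It was 0.012 there after quantile normalization and 0.0054 after cyclic loess. Treatment was tested in limma on all probe sets at once with the pair as a block. Its p-values were adjusted as q-values after Storey. In this fit 0% of all probe sets passed a q-value of 0.05 upwards and 0% downwards, so that none of the 7 genes was called in either direction. At an unadjusted p under 0.05, 2.73% were higher and 3.33% lower. An exact sign-flip test over 3 pairs cannot go below p = 0.25. The number of arrays limits the precision of every value, log2 levels of different probe sets are not comparable with each other, and the other genes have no names here, so that markers of bud epithelium and mesenchyme and other pathway genes were not analysed.

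Lef1, the Tcf/Lef factor that marks early placodes, had the largest difference of the 7 genes in every pair. Its log2 level in control medium was 8.41, 8.32 and 8.06 in replicates 1, 2 and 3, and with Fc-Eda it was 8.74, 8.71 and 8.61. All 3 Fc-Eda arrays lay above all 3 controls, as in 3.98% of all probe sets, by 0.20 between the closest. The pairs kept the same order in both conditions. The mean was 8.26 ± 0.19 (SD, n = 3) in control buds and 8.69 ± 0.070 with Fc-Eda. The difference was 0.33, 0.39 and 0.55 in the 3 pairs, larger than that of 93.9%, 96.6% and 97.7% of all probe sets in the same pair. Its mean of 0.43 (SE 0.089) corresponds to 1.34-fold, with a 95% interval from 1.15 to 1.57. In limma the unadjusted p was 0.0044 and the q-value 0.415. Lef1 was the 1 gene of the 7 with an unadjusted p under 0.05.

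The other tests named in the study's methods place Lef1 on either side of the threshold. In IBMT, whose prior variance depends on the level, its q-value was 0.0565, and none of the 7 genes was among the 0.339% of probe sets called higher. In a Cyber-T type test, which borrows variance from probe sets of similar level, its q-value was 0.0216, and it was the 1 gene of the 7 among the 0.624% called higher. Leaving out pairs in this test was chosen after the values had been seen, and q was then 0.0024 without pair 1, 0.0609 without pair 2 and 0.118 without pair 3, where 1.3%, 0.316% and 0.301% of all probe sets were called higher. After rescaling, likewise chosen later, this test called Lef1 with 0.713% of all probe sets after quantile normalization and 0.717% after cyclic loess, and none of the 7 genes with median centring, where 0.355% were called higher. IBMT called Lef1 without pair 3, with 0.987% of all probe sets, and none of the 7 genes without pair 1 (0% of all), without pair 2 (0.208%), after quantile normalization (0.00385%), after cyclic loess (0.0694%) or with median centring (0.208%). In 176 probe sets, 0.678% of all, the difference was at least 0.33 in every pair, as it was for Lef1. The amount of Lef1 RNA per cell and the share of Lef1-expressing cells, epithelial or mesenchymal, cannot be told apart in pooled buds.

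**Figure D1:**
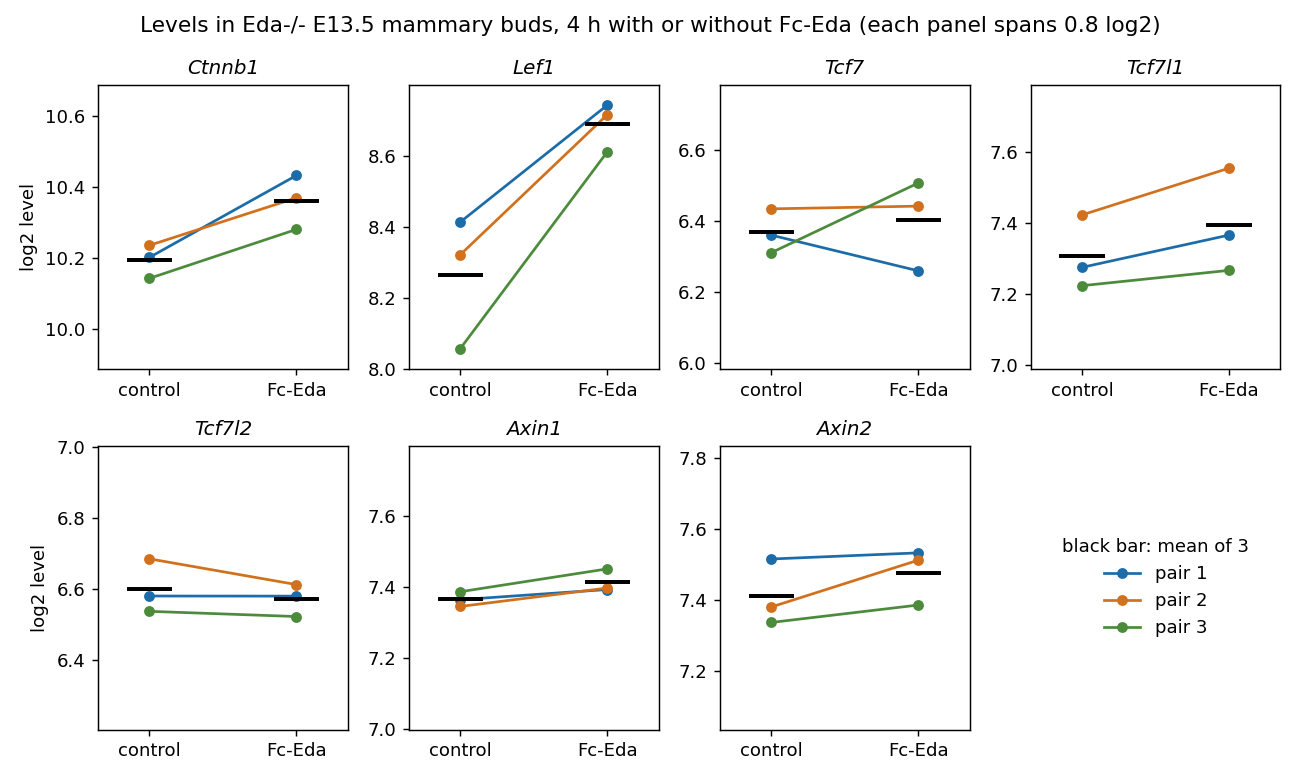
Log2 level of each gene (vertical axis, 0.8 log2 units in every panel) in control and Fc-Eda buds, with 1 line per pair and black bars for the means of 3 arrays. The Lef1 lines climb in all 3 pairs, from 8.06 to 8.41 in control buds to 8.61 to 8.74 with Fc-Eda, and the lines of Axin1 are nearly flat.

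Ctnnb1 encodes beta-catenin, whose activity is set mainly by protein stability. Its log2 level was 10.20, 10.24 and 10.14 in the control replicates and 10.43, 10.37 and 10.28 with Fc-Eda. The groups did not overlap, as in 3.98% of all probe sets upwards, with a gap of 0.044 between the highest control and the lowest Fc-Eda array. They overlapped after cyclic loess. The pair differences were 0.23, 0.13 and 0.14, with a mean of 0.17 (SE 0.081) or 1.12-fold, and a 95% interval from 0.974 to 1.30. The unadjusted p was 0.0912 in limma and q was 0.747. In IBMT the unadjusted p was 0.0143 (q = 0.416) and in the Cyber-T type test 0.0134 (q = 0.392), so that Ctnnb1 was not called by either. The controls of Ctnnb1 were close together, with an SD of 0.047, where the median over all probe sets, not matched for level, was 0.148. In 644 probe sets, 2.48% of all, the difference was at least 0.13 in every pair, as it was for Ctnnb1.

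The other Tcf/Lef genes showed smaller differences with no common direction. Tcf7, which like Lef1 can act with beta-catenin as an activator, was at 6.36, 6.43 and 6.31 in control buds and at 6.26, 6.44 and 6.51 with Fc-Eda. Its pairs went both ways, with -0.10, 0.0077 and 0.20. The mean was 0.035 with a 95% interval from -0.21 to 0.28, so that a change of the size of Lef1's mean lies above the interval. The interval of Lef1, from 0.20 to 0.65, overlaps it. The mean was 0.10 without pair 1, -0.046 without pair 3, 0.0049 after quantile normalization, 0.011 after cyclic loess and 0.091 with median centring.

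Tcf7l1, best known as a repressor of Wnt targets in the absence of signal, was at 7.27, 7.42 and 7.22 in control buds and at 7.37, 7.55 and 7.27 with Fc-Eda. The replicates differed more from each other than the conditions did, and replicate 2 was highest in both. The pair differences were 0.091, 0.13 and 0.043, with a mean of 0.089 (SE 0.080) and a 95% interval from -0.11 to 0.29. The mean was 0.039 after quantile normalization, 0.046 after cyclic loess and 0.15 with median centring. Tcf7l2, which can act in either way, was at 6.58, 6.69 and 6.54 in control buds and at 6.58, 6.61 and 6.52 with Fc-Eda. It was the 1 gene of the 7 lower in every pair, where 15.3% of all probe sets were, by -0.00032, -0.073 and -0.015. Its mean of -0.029 (SE 0.080) had a 95% interval from -0.23 to 0.17, and it was -0.0075 without pair 2, -0.066 after quantile normalization and -0.059 after cyclic loess, and turned to 0.027 when each array was centred on its median. The q-values in limma were 0.816 for Tcf7, 0.756 for Tcf7l1 and 0.816 for Tcf7l2.

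Axin2, the feedback gene of the pathway and with Lef1 its readout here, differed little between conditions. Its log2 level was 7.52, 7.38 and 7.34 in control buds and 7.53, 7.51 and 7.39 with Fc-Eda. The groups overlapped, with control 1 above 2 of the Fc-Eda arrays. The pair differences were 0.017, 0.13 and 0.049, with a mean of 0.066 (SE 0.081), or 1.05-fold, and a 95% interval from 0.907 to 1.21 (q = 0.769 in limma). The mean was 0.018 after quantile normalization and 0.023 after cyclic loess, with pair 1 at -0.097 and -0.10, and it was 0.12 with median centring and 0.033 without pair 2. On the deposited values, an increase of Axin2 as large as the mean of Lef1, 1.34-fold, lies above this interval. The interval of Lef1 itself, from 1.15 to 1.57, overlaps it.

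Axin1, the constitutive scaffold of the destruction complex, had the closest values of the 7 genes. It was at 7.37, 7.35 and 7.39 in control buds and at 7.39, 7.40 and 7.45 with Fc-Eda. Its control SD of 0.021 was smaller than that of all but 1.66% of probe sets, with no matching for level. The groups did not overlap, as in 3.98% of all probe sets upwards, but the gap was 0.0063. The mean difference of 0.048 (SE 0.079) had a 95% interval from -0.15 to 0.25 (q = 0.785 in limma). The mean was 0.0019 after quantile normalization and 0.0056 after cyclic loess, where the groups overlapped, and 0.11 with median centring.

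**Figure D2:**
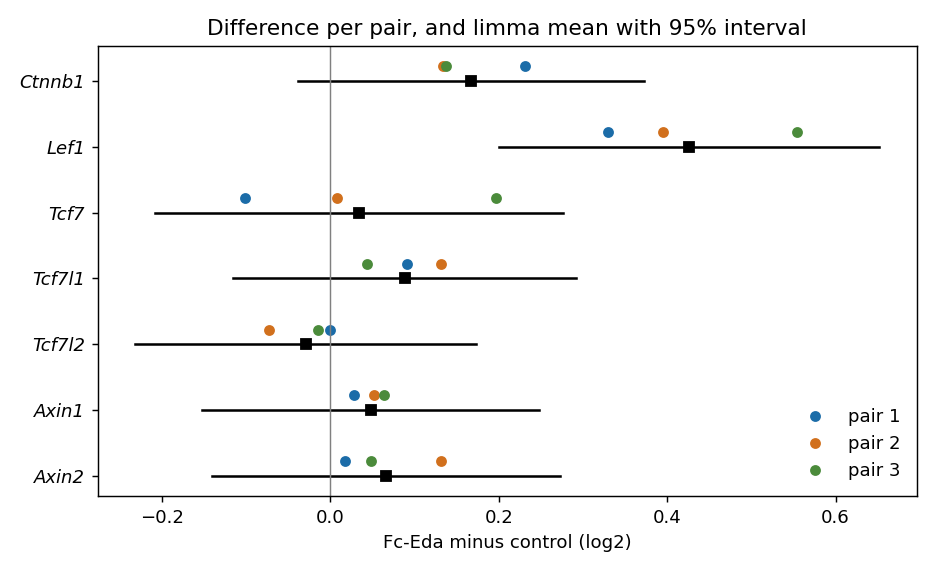
Fc-Eda minus control on the log2 scale for each gene, with coloured points for the 3 pairs and a black square and line for the limma mean and its 95% interval. The interval of Lef1, from 0.20 to 0.65, is the one of the 7 that does not include 0.

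The 2 readouts were then set against each other within pairs, as changes and not as levels. The difference of Lef1 exceeded that of Axin2 by 0.31, 0.26 and 0.51 in pairs 1, 2 and 3. The mean was 0.36 ± 0.13 (SD, n = 3), with p = 0.25 in the two-sided exact sign-flip test, the smallest that 3 pairs allow. The direction was the same in 3 of 3 pairs, and the mean lay between 0.29 and 0.41 with 1 pair left out.

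**Figure D3:**
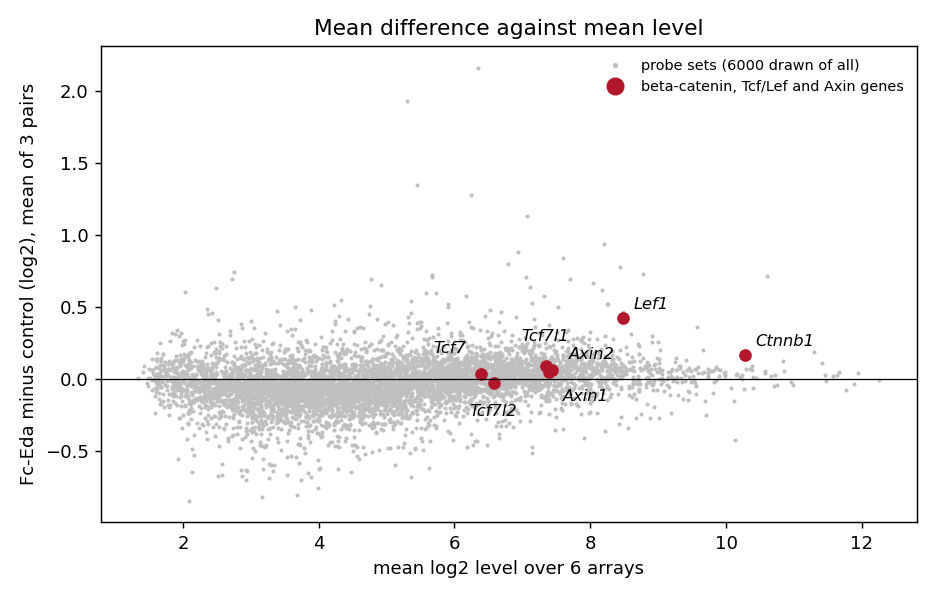
Mean Fc-Eda minus control difference over 3 pairs (log2) against mean log2 level, with the 7 genes in red over 6000 probe sets drawn from the table in grey. Lef1 at 0.43 lies high in the cloud at its level, with some probe sets above it. Ctnnb1 at 0.17 lies near the cloud's upper side, and the other 5 genes lie inside it.

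Counted over the set, 5 of the 7 genes were higher in all 3 pairs, where 13.2% of all probe sets were. Groups did not overlap upwards for 3 of 7, Lef1, Ctnnb1 and Axin1, where 3.98% of all did so. All 7 genes lay above the median level, and the values over all probe sets were not matched for level. The median of the 7 mean differences was 0.066, and that of all probe sets -0.024. These medians were 0.018 and -0.0015 after quantile normalization, 0.023 and -1.1e-05 after cyclic loess, and 0.12 and 0.033 with median centring. These counts depended on how the arrays were scaled. After quantile normalization 2 of 7 were higher in all pairs, Lef1 and Ctnnb1, against 14.7% of all probe sets, and the same 2 had groups that did not overlap, against 4.86%. After cyclic loess, chosen after the data were seen, it was again these 2, against 15.1%, and only Lef1 had groups that did not overlap, against 5.1%. With each array centred on its median the counts were 5, against 17%, and 3, against 5.6%. Under this scaling the median difference of pair 1 over all probe sets was itself 0.11. The values of pair 1 changed most, and in it Axin1, Axin2 and Tcf7l1 were lower with Fc-Eda after quantile normalization, by -0.087, -0.097 and -0.029, and after cyclic loess. Lef1 was higher in every pair under all 4 scalings, with pair 1 between 0.21 and 0.51, and had the largest difference of the 7 genes in each.

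**Figure D4:**
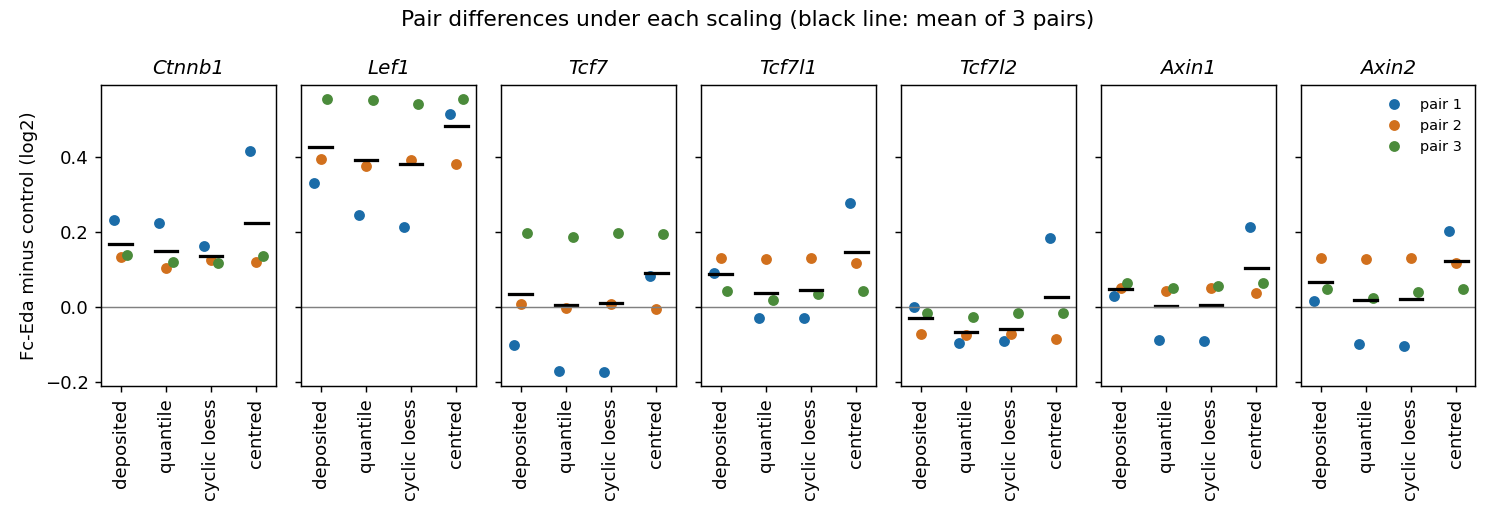
Fc-Eda minus control on the log2 scale for each gene under the deposited scaling, quantile normalization, cyclic loess and median centring, with points for the 3 pairs and a black line for their mean. Pairs 2 and 3 move less between scalings than pair 1, which moves across 0 for Axin1, Axin2, Tcf7, Tcf7l1 and Tcf7l2 and stays above 0 for Lef1 and Ctnnb1. The Tcf7 value of pair 2 lies within 0.01 of 0 throughout.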

How the data were processed

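Expression was measured on 6 arrays, 3 control and 3 Fc-Eda. The deposited values are log2 expression levels made by the authors for each array and Ensembl gene. The submitters' processing notes name RMA, and the probe set definition and build are not given in the sources used here. The genes were paired with identifiers by the list that defined them, and the reference table holds 0 Ensembl identifiers, so that the 11 gene lists drawn up (Wnt pathway genes, NF-kB response genes and cell type markers) and genes of like pattern were not analysed. The members and lists were chosen with earlier results of these data known.

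The main test was limma 3.58.1 (R 4.3.3) with terms for treatment and replicate number. Replicate numbers pair the arrays because each embryo gave buds to both conditions; the deviations within a pair correlated with r = 0.079, 0.29 and 0.29. Storey's q-value used a spline with 3 degrees of freedom over lambda from 0.05 to 0.95, and the threshold was 0.05. IBMT (loess span 0.75) and a Cyber-T type test (window 101, prior weight 10) were written out from their formulas. All 3 were run on simulated data with 200 probe sets changed. No simulated array stood apart as control 1 did, so that this run cannot decide between their calls of Lef1. The named genes are all 7. The alternatives were no block, IBMT, Cyber-T type, limma-trend, Benjamini-Hochberg adjustment, a filter at the median level, quantile normalization, median centring, and each pair left out. Cyclic loess and combinations of IBMT or the Cyber-T type test with scalings or left-out pairs were added after the data were seen.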

Additional observations from a re-analysis of the deposited data

How the results depend on the processing

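Fc-Eda minus control stayed positive for Lef1 under all 25 settings, from 0.36 to 0.48, and under all 13 for Ctnnb1 (0.14 to 0.22), Tcf7l1 (0.039 to 0.15), Axin2 (0.018 to 0.12) and Axin1 (0.0019 to 0.11), the last of which came close to 0. Tcf7 turned to -0.046 without replicate 3, and Tcf7l2 to 0.027 with median centring. Lef1 was the 1 gene called in 5 of its settings, at 0.43 in the Cyber-T type test, 0.39 and 0.38 with the same test after quantile normalization and cyclic loess, 0.47 with it without pair 1, and 0.36 in IBMT without pair 3, where IBMT used its prior variance alone. In the other 20 settings 0 of the 7 genes were called. With a pair left out, between 0 and 1 of the 7 genes was called, and the mean of Lef1 lay between 0.36 and 0.47 and that of Tcf7 between -0.046 and 0.10.

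Limma called 0 probe sets of the whole table, the fit with no replicate block 3, IBMT 94, limma with trend 96, the Cyber-T type test 193, and limma 91 above the median level and 57 with median centring. Leaving out each pair gave 0 to 11. Without the replicate block the q-value of Lef1 was 0.746, and the block changed no call among the 7 genes. The cause of these changes was not tested. How far these levels lie above background is not known, since no detection calls were used.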
